A study of Rattus norvegicus with 8 samples.

Results

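The 10 transcript records examined here code for the neuronal subunits of the nicotinic acetylcholine receptor in the rat, namely Chrna2 to Chrna7, Chrna9 and Chrnb2 to Chrnb4. They were picked by their RefSeq identifiers, and each of the 10 was found among the 18314 records of every library. The tissue was the right stellate ganglion, a sympathetic ganglion that sends nerve fibres to the heart. It was taken from 4 Wistar rats, an outbred strain with normal blood pressure that served as the control, and from 4 spontaneously hypertensive rats (SHR), an inbred strain that develops high blood pressure. All 8 rats were 16 weeks old and, by the study's methods, male. They carried no engineered allele and had no stated treatment, and each gave 1 library. The contrast is therefore between unlike strains, in which blood pressure and genetic background cannot be told apart.

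Nicotinic receptors are channels built from a ring of subunits that open when acetylcholine binds. In sympathetic ganglia they carry the fast signal from the preganglionic nerve ending to the noradrenergic neuron. The usual ganglionic receptor joins α3, which forms part of the acetylcholine site, with β4, and it may take in α5 as an accessory subunit or β2 as an alternative partner. The α7 subunit can form a channel on its own. The genes of α3, α5 and β4 lie next to each other in a cluster on rat chromosome 8.

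The libraries held between 25820299 and 35509074 estimated counts. The labelled tissue carried its defining transcripts: a list of sympathetic neuron markers summed to between 33940 and 40500 TPM (a level corrected for record length and library size) over the 8 rats. The summed markers of each of 9 cell types overlapped between the strains, those of neurons running from 33940 to 39790 TPM in Wistar rats and from 34840 to 40500 TPM in SHR. The neuron sum was weighted to Npy, which alone averaged 16560 of 36820 TPM in Wistar rats and 18980 of 37160 TPM in SHR. Of the 13 neuron marker records, 2 passed the edgeR test used for the strain comparison, where 2.85% of all records passed and 1.69% passed as lower. Both were lower in SHR and both were of Ddc, which codes for an enzyme of catecholamine synthesis. The median log2 fold change of the 13 was -0.14, and 3 of them did not overlap between strains, against 10.6% of all records. Dbh was among these 3, lower in SHR (log2 fold change -0.28, SE 0.13, edgeR adjusted p = 0.324). Npy was higher at 0.21 (edgeR adjusted p = 0.467), and the sums were not compared without it. The later scaling by neuron markers used summed counts, in which Dbh had the largest mean. Replicate 1 of each strain stood apart by summed adipocyte markers, at 57.3 TPM in the Wistar rat and 134 TPM in the SHR against 5.62 to 21.9 TPM in the other 6 ganglia. The sum was weighted to Fabp4, at 50.9 TPM in Wistar replicate 1 and 115 TPM in SHR replicate 1. By Adipoq, Wistar replicate 3 (4.76 TPM) lay near Wistar replicate 1 (5.92 TPM), and SHR replicate 1 had 17.5 TPM.

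Because the results turn on the clustered genes, the 250 bases before the start of each are shown as RefSeq gives them for build GRCr8, read 5′ to 3′ on the gene's own strand. The window of Chrna3 lies at chr8:64311252-64311501 (minus strand), that of Chrna5 at chr8:64265629-64265878 (plus strand) and that of Chrnb4 at chr8:64333110-64333359 (minus strand). Capitals mark GC boxes (GGGCGG, or CCGCCC for the other strand) and the CACCC box (CCACCC, or GGGTGG for the other strand).
Chrna3: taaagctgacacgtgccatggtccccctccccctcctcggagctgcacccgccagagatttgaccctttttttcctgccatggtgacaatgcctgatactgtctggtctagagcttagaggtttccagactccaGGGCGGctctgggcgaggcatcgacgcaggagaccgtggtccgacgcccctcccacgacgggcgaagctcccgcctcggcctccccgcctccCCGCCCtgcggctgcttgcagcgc
Chrna5: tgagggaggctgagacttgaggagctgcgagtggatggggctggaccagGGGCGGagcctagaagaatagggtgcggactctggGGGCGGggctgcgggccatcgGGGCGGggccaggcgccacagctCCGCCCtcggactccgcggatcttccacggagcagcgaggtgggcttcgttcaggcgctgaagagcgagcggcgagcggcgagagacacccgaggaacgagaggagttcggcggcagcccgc
Chrnb4: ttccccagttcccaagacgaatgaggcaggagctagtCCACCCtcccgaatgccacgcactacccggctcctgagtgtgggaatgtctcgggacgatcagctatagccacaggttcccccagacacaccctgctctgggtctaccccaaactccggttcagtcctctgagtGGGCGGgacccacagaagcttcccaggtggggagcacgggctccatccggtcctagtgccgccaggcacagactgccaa
The Chrna3 window held 2 GC boxes, starting 116 and 24 bases before the gene's start. The Chrna5 window held 4 GC boxes and the Chrnb4 window 1, at 79 bases before the start. Chrnb4 alone of these 3 had a CACCC box, at 213 bases before the start. None of the 3 held the E box CAGCTG, the same letters on either strand. GC boxes occurred in 30.5% of 33469 rat promoter windows of this length, CACCC boxes in 26.1% and this E box in 11.97%. The 3 windows contained 65.2%, 70.4% and 62.0% G or C in the order printed, against a median of 51.2% over all windows. These matches describe the letters only and were not linked to any difference between the strains.

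Chrna3 and Chrnb4 far exceeded every other subunit in both strains. In Wistar ganglia the level of Chrna3 was 1354 ± 65.1 TPM (SD, n = 4), which ranked 126 among all records, and that of Chrnb4 was 360 ± 38.6 TPM. The corresponding SHR levels were 1308 ± 204 TPM and 231 ± 53.4 TPM (SD, n = 4). Together with the other 8 records they summed to 1743 ± 92.4 TPM in Wistar rats and 1567 ± 256 TPM in SHR.

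A second tier was made up of Chrnb2, Chrna5 and Chrna7. In Wistar rats Chrnb2 averaged 12.6 ± 4.16 TPM, Chrna5 8.71 ± 0.874 TPM and Chrna7 6.73 ± 0.860 TPM (SD, n = 4). The SHR averages were 8.11 ± 3.13 TPM for Chrnb2, 11.2 ± 2.97 TPM for Chrna5 and 7.11 ± 2.82 TPM for Chrna7 (SD, n = 4). Within Wistar rats Chrnb2 and Chrna5 overlapped, and within SHR both Chrna5 with Chrnb2 and Chrnb2 with Chrna7 overlapped, so the order of those neighbours was not separated by the spread between rats. Chrna2, an α subunit better known from the brain, followed at 1.38 ± 0.701 TPM in Wistar rats and 1.15 ± 0.404 TPM in SHR, below Chrna7 in each of the 8 animals.

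**Figure D1:**
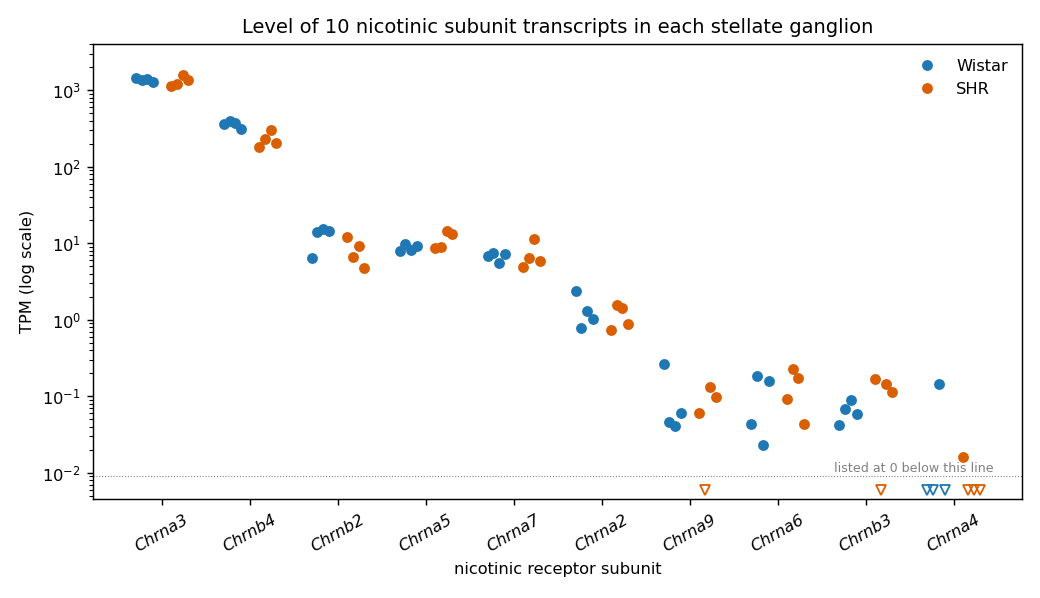
TPM on a log axis of the 10 subunit transcripts, 1 point per rat (blue, Wistar; orange, SHR), with open triangles for rats in which a record is listed at 0. Chrna3 and Chrnb4 lie at 183 TPM or above in every ganglion, and Chrna9, Chrna6, Chrnb3 and Chrna4 lie at 0.266 TPM or below.

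Chrna4, Chrna6, Chrna9 and Chrnb3 were close to the limit of detection and were too low to be tested. Chrna4, which pairs with β2 in the most abundant receptor of the brain, had 0 counts in 6 rats, 9 in Wistar replicate 3 and 1 in SHR replicate 1. Chrna6 had between 1 and 8 counts per rat, Chrna9 between 0 and 14, and Chrnb3, an accessory subunit usually met beside α6, between 0 and 11. Neighbours in the order of these 4 overlapped in both strains, and at this depth no strain difference was detectable for them.

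For the strain comparison, counts were scaled to a common library size (normalised counts) and tested with edgeR across the 13659 records that had enough counts. Of the 6 subunits tested, only Chrnb4 passed an adjusted p of 0.05, and it was lower in SHR. Of all records tested, 2.85% passed, 1.16% as higher and 1.69% as lower. Under scaling by neuron markers the split over all records changed from 158 higher and 231 lower to 225 higher and 128 lower. An unadjusted p under 0.05 was reached by 2 of the 6, Chrnb4 and Chrna5, and by 16.8% of all records. DESeq2 with a length offset also called 1 of the 6, lower in SHR, and called 2.77% of all its records as higher and 3.49% as lower. Chrnb4 was also the only subunit whose rats did not overlap between strains, as was the case for 10.6% of all records. With 6 members a single call is too few to set apart from those percentages. The median log2 fold change of the 6 was -0.16, against 0.01 over all records, with 2 above zero and 4 below.

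The β4 subunit shapes the response of the ganglionic receptor to agonists. Its record, NM_052806, counts 1488 bases. In Wistar replicates 1 to 4 the normalised counts of Chrnb4 were 14900, 15120, 14260 and 12100. Replicates 1 to 4 of SHR had 7539, 9805, 10920 and 8077. Every SHR therefore lay below every Wistar rat. The means were 14100 ± 1380 and 9085 ± 1558 (SD, n = 4 each), and Chrnb4 fell by 0.63 on the log2 scale in SHR (SE 0.13, 95% confidence interval -0.92 to -0.34, edgeR adjusted p = 0.0299), to 0.64 times the Wistar level. In whole tissue, fewer cells of a type and less RNA per cell cannot be told apart. The call was lost in 5 of the 8 fits that left out a rat: without Wistar replicate 1, 2 or 3 the adjusted p was 0.0707, 0.103 or 0.0898, and without SHR replicate 2 or 4 it was 0.0545 or 0.0961, while the log2 fold change stayed between -0.73 and -0.55 over all 8 such fits. Scaled by the summed counts of the neuron markers instead, the difference was -0.53 (adjusted p = 0.0567).

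Chrna3, the main acetylcholine-binding partner of β4, had means of 50120 ± 3932 normalised counts in Wistar rats and 48670 ± 4256 in SHR (SD, n = 4 each). The normalised counts of its record (NM_052805, 1500 bases) were 55830, 48450, 49260 and 46920 in Wistar replicates 1 to 4. SHR values in the same order were 43050, 48020, 52950 and 50660. The strains overlapped over most of their range. The log2 fold change was -0.04 (SE 0.09, edgeR adjusted p = 0.857), and its 95% confidence interval of -0.25 to 0.17 left out a fall of the size seen for Chrnb4. The sign of this small value changed to 0.07 when counts were scaled by the neuron markers.

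Chrna5, the accessory subunit of the same cluster, had a value in the other direction that did not pass. In Wistar replicates 1 to 4 the normalised counts of NM_017078 were 576.4, 649.6, 537.9 and 628.8. In SHR replicates 1 to 4 they were 613.6, 655.2, 878.8 and 940.7. SHR replicates 2, 3 and 4 were above all Wistar rats, replicate 2 by little, whereas SHR replicate 1 lay among them. The log2 fold change was 0.37 (SE 0.16, 95% confidence interval 0.02 to 0.72, unadjusted p = 0.0394, edgeR adjusted p = 0.270). Its estimated counts were not whole numbers in any of the 8 rats, as happens when reads are shared out between records by estimation, while those of the other 9 subunits were whole in every rat.

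**Figure D2:**
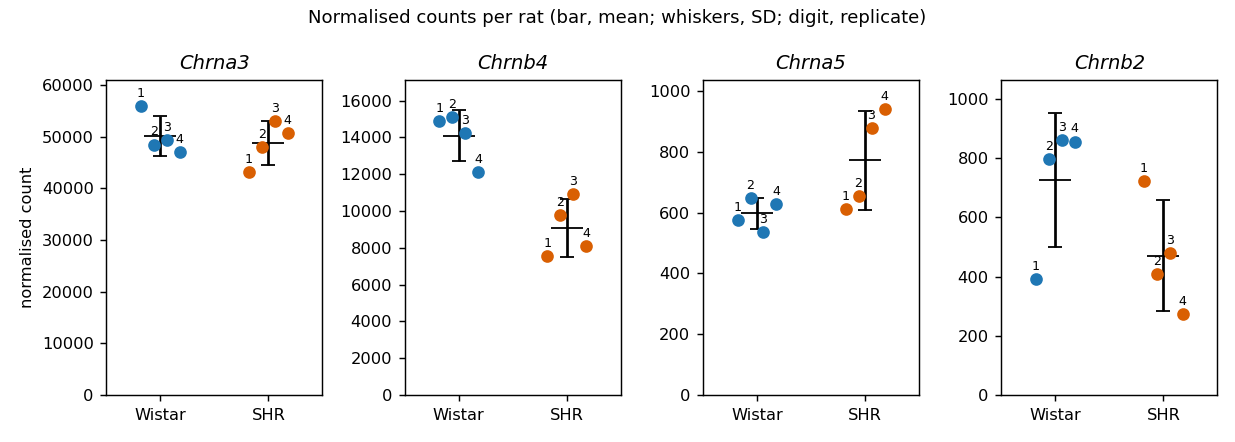
Normalised counts per rat of Chrna3, Chrnb4, Chrna5 and Chrnb2, with the mean (bar), the SD (whiskers) and the replicate number beside each point. The Chrnb4 points of the strains are apart, from 12100 to 15120 in Wistar rats and from 7539 to 10920 in SHR, and those of the other 3 overlap.

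Chrnb2, the β subunit that can take the place of β4, varied widely between rats of the same strain. Its normalised counts in Wistar replicates 1 to 4 were 391.0, 797.6, 862.3 and 856.8. The 4 SHR had 722.9, 407.4, 478.9 and 273.5. Replicate 1 of each strain lay on the side of the other strain. These are the ganglia with the high adipocyte sums given above, whose part in the Chrnb2 values was not tested. The log2 fold change over all rats was -0.63 (SE 0.31, 95% confidence interval -1.33 to 0.07, edgeR adjusted p = 0.347). Without replicate 1 of both strains it was -1.12 (SE 0.20, adjusted p = 0.0110). These are the rats that lay on the other strain's side, so leaving them out was bound to enlarge the difference. The same removal raised the calls over all records from 389 to 1068, so this p adds no separate evidence.

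Chrna7 and Chrna2 did not differ beyond the spread between rats. The normalised counts of Chrna7 were 266.1, 268.4, 197.8 and 267.9 in Wistar replicates 1 to 4. Replicates 1 to 4 of SHR had 192.4, 255.6, 377.3 and 218.0, so that SHR rats lay both above and below the Wistar rats. The log2 fold change of Chrna7 was 0.06 (95% confidence interval -0.44 to 0.56, edgeR adjusted p = 0.920). Chrna2 had between 37 and 135 counts per rat, the highest in Wistar replicate 1. Its log2 fold change was -0.27 with a wide 95% confidence interval of -1.16 to 0.63 (edgeR adjusted p = 0.777), and it became 0.17 without that rat. These intervals are too wide to show that either subunit had the same level in both strains.

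**Figure D3:**
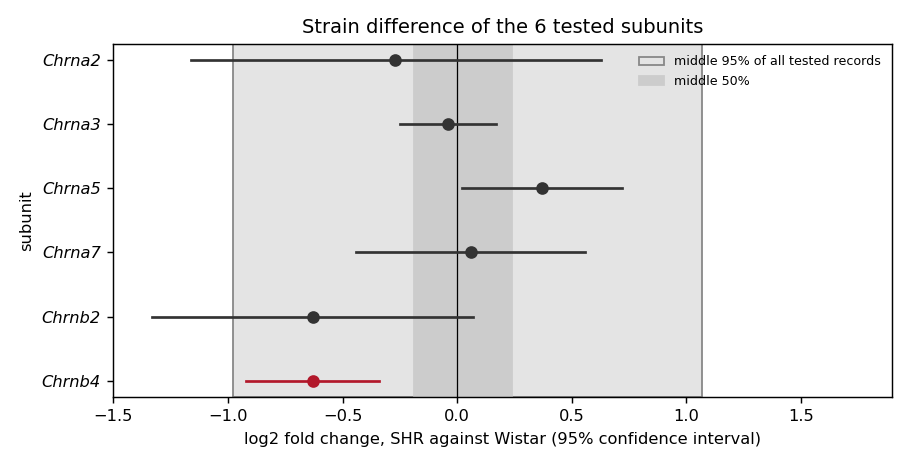
Log2 fold change of SHR against Wistar with its 95% confidence interval for the 6 tested subunits, over bands that hold the middle 50% and 95% of all tested records. Chrnb4 (red, adjusted p = 0.0299) is at -0.63 with an interval below zero, and Chrnb2 has the same value with an interval that crosses zero.

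Ratios taken within a ganglion do not depend on library scaling, and 4 were tested. Chrnb4 stood at 25.3%, 29.4%, 27.2% and 24.2% of the Chrna3 level (TPM) in Wistar replicates 1 to 4. In SHR replicates 1 to 4 it stood at 16.4%, 19.4%, 19.3% and 15.1%. The groups were apart. The means were 26.5 ± 2.31% and 17.6 ± 2.12% (SD, n = 4 each), a log2 difference of -0.60 with a two-sided exact permutation p of 0.0286, the smallest that 4 rats against 4 allow, and 0.0571 after Benjamini-Hochberg adjustment over the 4 ratios. With that floor, no adjusted p could go under 0.05 unless most of the 4 ratios were fully apart. Since Chrna3 hardly differed (-0.04), this ratio largely restates the Chrnb4 difference (-0.63) from the same libraries. It adds no separate evidence.

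The ratio of Chrna5 to Chrna3 was the other one without overlap. It ran from 0.551% to 0.726% in Wistar rats and from 0.734% to 0.996% in SHR, with a log2 difference of 0.40 (exact permutation p = 0.0286, adjusted p = 0.0571, n = 4 each). The gap between the nearest rats of the strains was small. This ratio, too, largely restates the Chrna5 value (0.37) from the same libraries. Chrnb2 to Chrnb4 overlapped, at 3.55 ± 1.28% and 3.68 ± 1.92% (SD, n = 4 each, exact permutation p = 0.971). Chrna7 to Chrna3 overlapped as well, at 0.499 ± 0.0776% and 0.531 ± 0.128% (exact permutation p = 0.743).

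**Figure D4:**
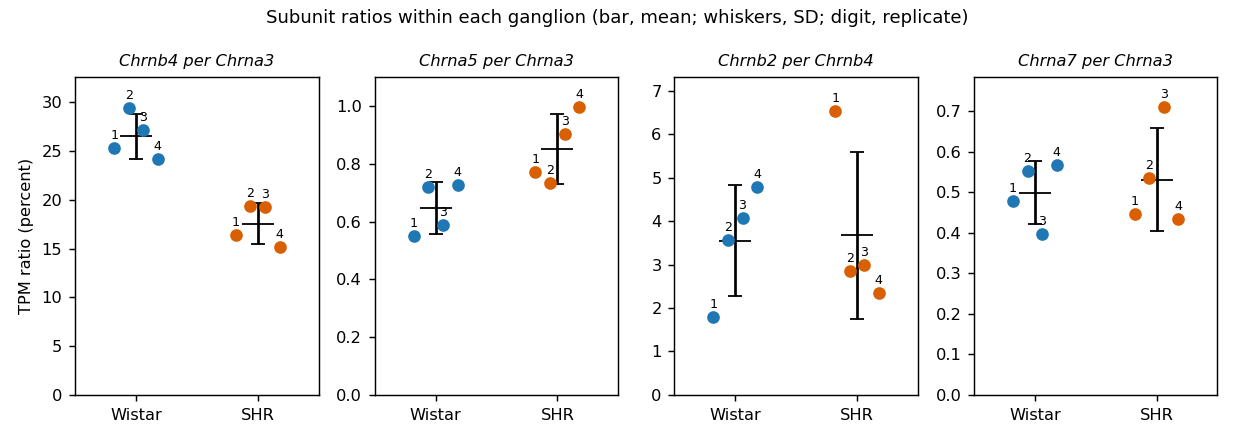
Ratio of TPM of 4 subunit pairs within each ganglion, in percent, with the mean (bar), the SD (whiskers) and the replicate number. Chrnb4 per Chrna3 lies between 24.2% and 29.4% in Wistar rats and between 15.1% and 19.4% in SHR; Chrnb2 per Chrnb4 and Chrna7 per Chrna3 overlap.

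As a share of the summed TPM of the 10 records, Chrna3 made up 77.7 ± 1.43% in Wistar rats and 83.6 ± 1.53% in SHR (SD, n = 4 each). Chrnb4 accounted for 20.6 ± 1.41% and 14.6 ± 1.51%, and Chrna5 for 0.502 ± 0.0677% and 0.712 ± 0.109%. The remaining 7 records stayed below 1% each in every rat. These shares restate the ratios and were not tested separately.

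The muscle-type subunits and Chrna10, the partner of α9, did not pass in any case (0 of 3 tested of 6 listed with edgeR, 0 with an unadjusted p under 0.05, 0 with DESeq2), and their median log2 fold change was 0.15. Over all records these shares were 2.85%, 16.8% and 6.26%, from which 0 of 3 cannot be set apart. Chrna1, the α subunit of the muscle receptor, was detected at 11.03 TPM in Wistar rats and 12.2 TPM in SHR, a level like that of Chrna5. Its log2 fold change was 0.15 (adjusted p = 0.744). Chrnb1 had 1.30 and 0.826 TPM, with a log2 fold change of -0.64 (SE 0.29, adjusted p = 0.302). Striated muscle markers summed to between 41.7 and 58.0 TPM over the 8 ganglia, and their part in the Chrna1 level was not tested.

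Among factors that assemble nicotinic receptors or act on them at the cell surface, 0 of 10 records passed with edgeR, 2 had an unadjusted p under 0.05 and 0 passed with DESeq2. The shares of all records were 2.85%, 16.8% and 6.26% in the same order. The median log2 fold change of the 10 was -0.07. Lynx1, a membrane-anchored protein that restrains nicotinic receptors, had normalised counts of 31920, 24690, 28290 and 27460 in Wistar replicates 1 to 4. Among the SHR the counts were 35410, 36300, 36300 and 33520. The strains did not overlap, as was the case for 10.6% of all records, but the log2 fold change of 0.33 (SE 0.09) did not pass at an adjusted p of 0.0993. Tmem35a, the chaperone also called NACHO, had a log2 fold change of -0.19 (SE 0.13, adjusted p = 0.490). Ric3, another chaperone, held the second unadjusted p under 0.05 and was singled out after its values were seen. Its 2 records summed to a log2 fold change of -0.42 (SE 0.12, adjusted p = 0.0920).

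Of 8 listed transcription factors and RNA-binding proteins known to act on the gene cluster, 5 were matched to a record, and 0 of the 5 tested and reported here passed with edgeR, 0 had an unadjusted p under 0.05 and 0 passed with DESeq2. Among all records 2.85%, 16.8% and 6.26% did so, from which 0 of 5 cannot be set apart. The median log2 fold change of the 5 was 0.16. Sp1, which binds GC boxes, had a log2 fold change of 0.19 (SE 0.12, edgeR adjusted p = 0.455). Hnrnpk, an RNA-binding protein, had a log2 fold change of -0.13 (SE 0.09, adjusted p = 0.485).

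The genes that flank the cluster did not pass (0 of 5 with edgeR, 0 with an unadjusted p under 0.05, 0 with DESeq2), with a median log2 fold change of -0.03. The shares of all records were 2.85%, 16.8% and 6.26% in the same order, from which 0 of 5 cannot be set apart. Psma4, a proteasome subunit, had a log2 fold change of -0.03 (95% confidence interval -0.30 to 0.23, adjusted p = 0.916). For Morf4l1, a chromatin protein, the interval was -0.24 to 0.23 (adjusted p = 0.992). Both intervals leave out a fall of the size seen for Chrnb4, but those of Ireb2 and Adamts7 include it. Ireb2 had a log2 fold change of -0.32 (95% confidence interval -0.67 to 0.03, adjusted p = 0.341). Adamts7 had -0.48 (interval -1.06 to 0.11, adjusted p = 0.394). The interval of Hykk, at 0.41 (-0.47 to 1.29, adjusted p = 0.632), leaves such a fall out.

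Among genes of acetylcholine supply and breakdown and the muscarinic receptors, 1 of 8 tested passed with edgeR, lower in SHR, and 2 had an unadjusted p under 0.05, where 1.69% and 16.8% of all records did. The median log2 fold change of the 8 was -0.12. The gene that passed was Slc18a3, the transporter that loads acetylcholine into vesicles. Its normalised counts were 446.7, 563.3, 391.9 and 623.1 in Wistar replicates 1 to 4. In SHR replicates 1 to 4 they were 231.9, 176.5, 144.9 and 115.6. The strains were far apart, and Slc18a3 fell by 1.60 on the log2 scale (SE 0.24, edgeR adjusted p = 0.00557), with an adjusted p of at most 0.0266 when any rat was left out. The study's supplement also names Slc18a3 among the genes that differed in these samples, so the call is not independent evidence. The other listed genes of acetylcholine supply did not pass: Chat had a log2 fold change of -0.05 (SE 0.25, adjusted p = 0.948) and Slc5a7 0.14 (SE 0.20, adjusted p = 0.774). Ache, which breaks down acetylcholine, had a log2 fold change of -0.44 (SE 0.19, adjusted p = 0.281). Bche, a related esterase, had -0.09 (SE 0.25, adjusted p = 0.890).

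Other channels of the same pentameric family passed in 2 of the 10 tested records reported here with edgeR, both lower in SHR, where 2.85% of all records passed and 1.69% passed as lower. In DESeq2, which called 6.26% of all its records and 3.49% as lower, 4 of them passed, all lower. An unadjusted edgeR p under 0.05 was reached by 5 of the 10, against 16.8% of all records, and 5 of the 10 did not overlap between strains, against 10.6%. Both sets of 5 included Gabrb2, which was higher in SHR (log2 fold change 0.96, SE 0.31, edgeR adjusted p = 0.157). The median log2 fold change of the 10 was -0.56. The study itself singled out Htr3a, Htr3b, Glrb and Gabra2 on these samples, as it did Chrnb4, so these counts are not independent evidence. It also measured these genes by qRT-PCR, a separate assay of transcript level, and reported the same direction for each. Among the genes named here, it called only Chrnb4 different between strains in that assay. The study's results describe the assayed ganglia as independent, while its methods name matched left ganglia, so whether other rats were used is uncertain. Gabra2, an α subunit of the GABA-A receptor, ran from 51.3 to 129 normalised counts in Wistar rats and from 7.79 to 34.8 in SHR, without overlap. It fell by 2.08 on the log2 scale (SE 0.44, edgeR adjusted p = 0.0366). Its call was lost without Wistar replicate 1, 2 or 3 or SHR replicate 1, 2 or 3, at an adjusted p between 0.0529 and 0.102, with neuron marker scaling (0.0608) and without replicate 1 of both strains (0.0746). Htr3a, a subunit of the serotonin-gated channel and a cation channel like the nicotinic receptor, fell by 0.69 (SE 0.15, adjusted p = 0.0368). The Htr3a counts ran from 1631 to 2253 in Wistar rats and from 911.6 to 1403 in SHR, and its adjusted p was between 0.0570 and 0.101 when any rat other than SHR replicate 2 was left out, and 0.0601 without replicate 1 of both strains.

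**Figure D5:**
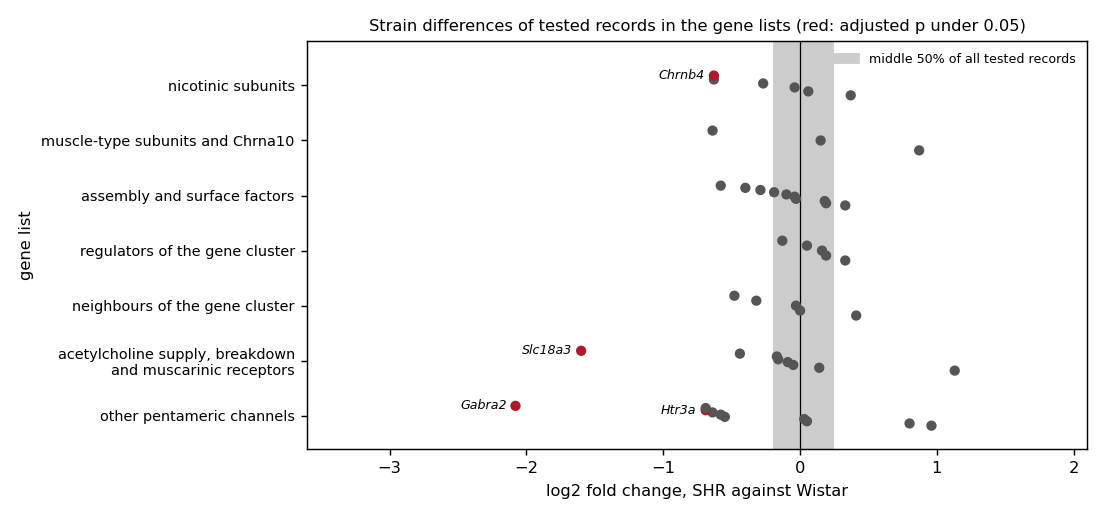
Log2 fold change of SHR against Wistar for the tested records reported here of the nicotinic subunits and of 6 related gene lists, with records past an adjusted p of 0.05 in red and named. Chrnb4 (-0.63) and Htr3a (-0.69) lie close together, and Gabra2 (-2.08) and Slc18a3 (-1.60) lie farther out.

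Records whose level followed Chrna3 or Chrnb4 most closely over the 8 rats were sought among 12893 named records, as a description without a test. Pde9a, a phosphodiesterase of cyclic GMP, was nearest to Chrna3 (Pearson r = 0.989, Spearman rho = 0.976), followed by Golga3 (r = 0.986) and Unc13b (r = 0.982). Tspyl4 was nearest to Chrnb4 (r = 0.993, rho = 0.976), followed by Zkscan5 (r = 0.985) and Rapgef5 (r = 0.974). The nearest records to Chrna3 had log2 fold changes between -0.21 and -0.06, none of which passed. Of those nearest to Chrnb4, Zkscan5 (-1.04, edgeR adjusted p = 0.00863) and Rapgef5 (-0.48, adjusted p = 0.0487) passed and Tspyl4 (-0.37, adjusted p = 0.0781) did not. With 8 points from 2 strains, a record that differs between strains as Chrnb4 does gains a high r from that alone, and all values come from the same libraries.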

How the data were processed

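Total RNA of 1 right stellate ganglion per rat was sequenced, 4 rats per strain. The labels name a stranded mRNA library kit and the study's methods an amplification kit, so the library chemistry is uncertain. Per the submitters' processing notes, reads were checked with FastQC 0.11.7 and quantified with Salmon 0.8.2 (build rn6). The authors deposited, for each RefSeq record, Salmon's estimated count (an expected, often fractional count), a TPM, the record length and the effective length, with no normalisation between samples. Genes with several records were tested record by record.

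Estimated counts, rounded to integers, were tested with edgeR 4.0.16 in R 4.3.3 (TMM, filterByExpr, glmQLFit and glmQLFTest with defaults, Benjamini-Hochberg adjusted p under 0.05) over 13659 records. A normalised count is the TMM-scaled count brought to the mean library size. The SE was derived from F (log2 fold change over root F, unsigned), and intervals cover 95%. TPM gave levels and ratios, the latter with exact permutation tests (scipy 1.17.1). Likeness used log2 CPM computed from the counts with a prior count of 2. The alternatives included DESeq2 1.42.0 (run both with a length offset and without), limma 3.58.1 on log2(TPM + 1) and log2(TPM + 0.1), other scalings and filters, gene sums, a replicate block and leaving out rats. The fits were tested on simulated data. Depth ran from 25820299 to 35509074 counts, and p-values measure the spread between these rats. No replicates were duplicates: the squared differences of their counts were 22.4 to 111 times those of sampling noise (chi-square per degree of freedom).

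The subunits and gene lists were chosen with earlier results of these data known. Of the listed genes, 2 are not reported here, and the list counts leave them out. A further 3 cluster regulators, 2 assembly factors, 1 pentameric channel and 1 neuron marker were not matched by symbol and were not analysed here. Named are all 10 subunits, the 3 records most correlated with Chrna3 and with Chrnb4, the list members past the threshold and, where fewer than 2 passed, the 2 with the largest mean count. Hykk, Ireb2, Adamts7, Chat, Slc5a7, Gabrb2 and the markers Npy, Dbh, Fabp4 and Adipoq were named in addition, after their values were seen. Symbols came from a RefSeq table of build GRCr8, which named 17360 of 18314 records.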

Additional observations from a re-analysis of the deposited data

Results flagged for a closer look

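In 46 groups of 4 rats, the lowest or highest rat was compared with the other 3 by Dixon's criterion, and 4 stood apart where 2.3 would by chance at 1 in 20. Chrna7 in Wistar replicate 3 had 197.8 normalised counts against 266.1 to 268.4 in the other Wistar rats. Chrnb2 in Wistar replicate 1 had 391.0 normalised counts against 797.6 to 862.3. The ratio of Chrnb2 to Chrnb4 in SHR replicate 1 was 6.53% against 2.34% to 2.99% in the other SHR. Psma4 in Wistar replicate 1 had 5395 normalised counts against 4118 to 4319.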

How the results depend on the processing

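Of 250 alternative values over all results, 202 kept their direction, side of the threshold or size. Counts of records past the threshold: 389 over all records became 851 with DESeq2 and a length offset, 782 without it, 132 with the replicate block and 1068 without replicate 1 of both strains (28.4% of them higher in SHR), and 237 to 454 when 1 rat was left out. Scaling by neuron markers shifted the median of all records to 0.12 and gave 353, of which 63.7% were higher, against 40.6%. The subunit count of 1 became 0 with neuron marker scaling and with the replicate block, 0 to 1 with 1 rat left out, and 2 without both replicates 1. Chrnb4 stayed negative in all 20 alternatives and passed in 11, at an adjusted p from 0.000888 (DESeq2) to 0.103. It missed with neuron marker scaling (-0.53), with the replicate block (-0.64, adjusted p = 0.0869), with limma on log2(TPM + 1) (-0.66, adjusted p = 0.0551) and log2(TPM + 0.1) (-0.66, adjusted p = 0.0552), and in 5 of the 8 fits without 1 rat (range over the 8, -0.73 to -0.55). The block is a check only: same-numbered rats did not deviate together (correlations -0.29 to -0.038). Chrnb2 passed without both replicates 1 (-1.12), the rats that lay on the other strain's side, and ran from -0.91 to -0.43 with 1 rat left out. Signs reversed, none past the threshold, for Chrna3 (0.07 with neuron marker scaling, 0.06 without both replicates 1, -0.08 to 0.02 without 1 rat), Chrna2 (0.33 without both replicates 1, -0.48 to 0.17 without 1 rat), Chrna7 (-0.17 to 0.19 without 1 rat), the ratio of Chrna7 to Chrna3 (-0.07 to 0.16) and that of Chrnb2 to Chrnb4 (-0.30 to 0.20, and 0.00 from normalised counts against 0.02). Chrna7 kept its sign without both replicates 1 (0.21). The count of 2 other pentameric channels became 4 with DESeq2 and 0 to 1 without 1 rat, and the calls of Gabra2 and Htr3a were lost with the replicate block (adjusted p = 0.180 and 0.118). Ratio tests with a rat left out or blocked cannot reach the threshold, so the side that they kept among the 202 was fixed beforehand. The causes were not tested. Depth limits Chrna4, Chrna6, Chrna9 and Chrnb3, with 10 to 45 counts each over all rats.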
